A study of Mus musculus with 16 samples.

Results

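The extracellular matrix proteoglycans described here are the small leucine-rich proteoglycans decorin (Dcn), biglycan (Bgn), asporin (Aspn), lumican (Lum), fibromodulin (Fmod), PRELP (Prelp), osteoglycin (Ogn) and podocan (Podn), and the large proteoglycans versican (Vcan) and perlecan (Hspg2). They were chosen by symbol, and all 10 were found among the 40324 distinct gene symbols of the deposited count table. Liver RNA of db/db mice was sequenced in 8 libraries after adeno-associated virus 8 (AAV8) encoding arcA, and in 8 libraries after AAV8 encoding green fluorescent protein (GFP). The labels number the libraries within each group without stating that each came from a separate mouse, and each is called a liver below. Littermates were injected at about 5 weeks of age and were 10 weeks old at sampling. All mice of both groups carried the db/db genotype, a loss of leptin receptor function that gives obesity and diabetes, and all had received virus, so neither lean nor uninjected livers enter the comparison. The labels give neither the promoter that drives the transgene nor what arcA encodes. The question put by the study's title is how arcA overexpression changes gene expression in liver.

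Small leucine-rich proteoglycans have a curved core of leucine-rich repeats that binds collagen fibrils and sets their spacing and width, and several carry chondroitin, dermatan or keratan sulfate chains. Released from the matrix, decorin and biglycan also bind growth factors and innate immune receptors. Versican fills the loose matrix together with hyaluronan, and perlecan is a heparan sulfate proteoglycan of basement membranes and of the space that lines the sinusoids. In liver such genes are known mainly from stellate cells, portal fibroblasts and vessel walls, and decorin and biglycan accumulate in fibrotic septa.

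Total counts were 37325610 to 45874797 per library in the arcA group and 28912563 to 53520828 in the GFP group. The hepatocyte list showed the labelled tissue, with a summed level of 97300 to 128000 CPM (counts scaled to a common library size) in arcA livers and 93200 to 113000 CPM in GFP livers. GFP libraries 2, 3 and 5 stood apart from the rest, since the transcript Gm42418 took 11.8% to 19.4% of their counts, against 2.29% to 7.37% in the other 13 libraries. Levels are given below as CPM with library sizes scaled by TMM, and differences as log2 fold changes of arcA over GFP. In bulk tissue, fewer cells of a type and less RNA per cell cannot be told apart.

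Promoters are shown for 3 of the 4 genes that passed the test described below (Bgn, Prelp and Hspg2), so that the start sites of genes with similar changes can be set side by side. Each sequence is the RefSeq window of 250 bases before to 50 bases after the gene start on GRCm38.p6, printed 5′ to 3′ on the gene's own strand. The table of promoters held 8 of the 10 genes, without Dcn and Lum. Capitals mark GGGCGG (the GC box) in Bgn and Hspg2 and CAGAC (a SMAD element) in Prelp, searched on both strands, so that CCGCCC and GTCTG are the same motifs on the opposite strand. The windows are chrX:73483351-73483650 on the plus strand for Bgn, chr1:133921352-133921651 on the minus strand for Prelp and chr4:137468553-137468852 on the plus strand for Hspg2.
Bgn: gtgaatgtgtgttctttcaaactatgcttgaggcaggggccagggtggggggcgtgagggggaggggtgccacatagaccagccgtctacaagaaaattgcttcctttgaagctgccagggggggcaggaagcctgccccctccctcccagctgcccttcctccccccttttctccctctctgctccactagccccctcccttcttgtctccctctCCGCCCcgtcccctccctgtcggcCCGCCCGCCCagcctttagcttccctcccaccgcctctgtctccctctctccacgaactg
Prelp: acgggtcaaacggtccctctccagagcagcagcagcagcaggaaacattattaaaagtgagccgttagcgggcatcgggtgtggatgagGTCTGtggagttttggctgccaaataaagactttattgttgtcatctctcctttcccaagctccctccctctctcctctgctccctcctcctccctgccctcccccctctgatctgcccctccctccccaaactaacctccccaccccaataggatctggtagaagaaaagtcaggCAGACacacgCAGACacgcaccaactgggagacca
Hspg2: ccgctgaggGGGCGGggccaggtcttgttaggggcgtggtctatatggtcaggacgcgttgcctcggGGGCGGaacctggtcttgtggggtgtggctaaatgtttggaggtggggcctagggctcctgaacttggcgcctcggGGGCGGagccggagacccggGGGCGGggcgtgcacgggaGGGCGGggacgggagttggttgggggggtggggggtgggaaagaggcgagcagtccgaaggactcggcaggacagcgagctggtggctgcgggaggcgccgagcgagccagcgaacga

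The Hspg2 window held 5 GC boxes in the gene's direction, with first bases 241, 183, 107, 87 and 68 bases before the start. The Bgn window held 3 on the opposite strand, 34, 10 and 6 bases before the start, of which the last pair overlap. The Prelp window held no GC box and had CAGAC at 16 and 26 bases after the start and, on the opposite strand, 161 bases before it. GGGCGG was found in 35.7% of all 32851 promoter windows and CAGAC in 49.6%. GGGCGG was also found in Podn and Vcan, and CAGAC in Fmod and Podn, genes that did not pass that test or were too low for it. TATAAA, searched in the same way and held by 13.6% of all windows, was found in Ogn and Aspn. TGANTCA (the AP-1 element), held by 7.81% of all windows, was found in none of the 8 genes' windows. These matches describe letters in a window of 300 bases.

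The first comparison asks which of these genes differed between arcA and GFP livers. Of the 10 genes, 8 had counts high enough to be tested, and 4 of these (Dcn, Bgn, Prelp and Hspg2) were lower in arcA livers, each by between 1.35-fold and 1.41-fold. None was higher, and Lum, Fmod, Ogn and Podn did not pass the test. Over all 14476 genes tested by edgeR's quasi-likelihood test with Benjamini-Hochberg adjustment at 0.05, 6.57% were lower and 4.26% were higher in arcA livers. The fold changes of all 8 tested genes were negative, with a median of -0.49, beside a median of 0.01 over all genes tested. They were negative under every scaling tried as well.

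Dcn encodes decorin, the small dermatan sulfate proteoglycan that binds collagen I and sequesters TGF-beta. It lies on chromosome 10, 97479609 to 97518143 (plus strand, GRCm38). Its level was 85.1, 101 and 116 CPM (lowest, median and highest) in arcA livers and 129, 144 and 153 CPM in GFP livers. All 8 arcA livers lay below all 8 GFP livers. Lower groups that do not overlap were found for 1.2% of all genes tested. Dcn averaged 101 ± 10.9 CPM in arcA livers and 143 ± 9.40 CPM in GFP livers (SD, n = 8 each). The difference was -0.50 on the log2 scale (SE 0.0636, 95% interval -0.63 to -0.37, adjusted p = 5.56e-05, edgeR).

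Bgn encodes biglycan, the closest relative of decorin, known as a danger signal for Toll-like receptors once it is soluble. The gene is on chromosome X, 73483602 to 73495933 (plus strand). Its level was 52.1, 62.8 and 70.2 CPM in arcA livers and 76.8, 83.8 and 101 CPM in GFP livers, again with no overlap between the groups. It averaged 62.4 ± 6.09 CPM in arcA livers and 86.6 ± 8.32 CPM in GFP livers (SD, n = 8 each). The difference was -0.47 on the log2 scale (SE 0.0666, 95% interval -0.61 to -0.33, adjusted p = 0.000163, edgeR).

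Aspn encodes asporin, which resembles decorin but carries a stretch of aspartate and usually no glycosaminoglycan chain. The gene is on chromosome 13, 49544443 to 49567565 (plus strand), and was too low to be tested after the filter on low counts. The 8 arcA libraries held 9 counts in all, with 5 libraries at 0 and at most 4 counts in one, and the 8 GFP libraries held 42 counts, with 1 to 8 in each. With no filter the log2 difference was -2.29 and did not pass the test (adjusted p = 0.087, edgeR). The counts overlapped between the groups, and 3 counts correspond to 0.05 to 0.12 CPM, depending on the library.

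Prelp encodes a leucine-rich protein of basement membranes and cartilage that binds heparan sulfate, collagen and perlecan. The gene is on chromosome 1, 133910304 to 133921414 (minus strand). Its level was 18.8, 22.8 and 29.2 CPM in arcA livers and 27.6, 31.5 and 39.9 CPM in GFP livers. The groups overlapped, and 6 of 8 arcA livers lay below the lowest GFP liver. Prelp averaged 23.8 ± 3.5 CPM in arcA livers and 32.2 ± 3.78 CPM in GFP livers (SD, n = 8 each), a log2 difference of -0.44 (SE 0.0863, 95% interval -0.62 to -0.26, adjusted p = 0.00276, edgeR). The antisense gene Gm15851 shares 350 bases, 9.68% of the exon bases of Prelp, and had 6 counts in all 16 libraries. Whether counting used strand is not given, so reads of that stretch cannot be assigned with certainty.

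Lum encodes lumican, a keratan sulfate proteoglycan of collagen fibrils, on chromosome 10, 97565128 to 97572703 (plus strand). Its level was 1.6, 2.93 and 4.31 CPM in arcA livers and 3.11, 4.47 and 7.59 CPM in GFP livers. The groups overlapped, although all 8 arcA livers lay below the GFP median. The log2 difference was -0.64 (SE 0.218, 95% interval -1.09 to -0.18) and did not pass the test (adjusted p = 0.0691, edgeR). DESeq2 called it (adjusted p = 0.0221).

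Fmod encodes fibromodulin, which binds the same part of collagen I as lumican, from chromosome 1, 134037254 to 134048277 (plus strand). Its level was 0.758, 2.64 and 5.49 CPM in arcA livers and 2.43, 4.22 and 14.0 CPM in GFP livers. The groups overlapped, with 6 of 8 arcA livers below the GFP median, and the highest GFP values were 14.0 CPM in library 6, 9.13 CPM in library 2 and 7.93 CPM in library 1. GFP library 6 also held the highest summed levels of the mesothelium list (58.1 CPM) and of the portal fibroblast list (76.0 CPM) among all 16 libraries. The part of those cells in the Fmod value was not tested. The log2 difference was -1.03 (SE 0.414, 95% interval -1.92 to -0.15) and did not pass the test (adjusted p = 0.131, edgeR). Without GFP library 6 it was -0.73 (adjusted p = 0.265, edgeR).

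Ogn encodes osteoglycin, also called mimecan, a small member of the family known from bone and vessel walls, on chromosome 13, 49608046 to 49624501 (plus strand). Its level was 1.25, 1.42 and 2.24 CPM in arcA livers and 1.35, 2.36 and 5.09 CPM in GFP livers. The groups overlapped, and GFP library 6 was again the highest. The log2 difference was -0.72 (SE 0.239, 95% interval -1.22 to -0.22) and did not pass the test (adjusted p = 0.0577, edgeR). DESeq2 called it (adjusted p = 0.0242).

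Podn encodes podocan, a family member described in vessel walls and kidney. It lies on chromosome 4, 108014791 to 108096445 (minus strand). Its level was 2.77, 3.73 and 4.8 CPM in arcA livers and 2.84, 4.8 and 6.61 CPM in GFP livers, so that the ranges overlapped over most of their length. The log2 difference was -0.37 (SE 0.175, 95% interval -0.74 to -0.01) and did not pass the test (adjusted p = 0.191, edgeR). Podn had the smallest fold change of the 8 tested genes. Its span overlaps that of Scp2 on the same strand, with 0 shared exon bases. Scp2 had 1576731 counts in all 16 libraries and Podn 2736. Whether reads of Scp2 entered the Podn count was not tested.

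Hspg2 encodes perlecan, the only one of the genes tested whose main chains are heparan sulfate. It lies on chromosome 4, 137468769 to 137570630 (plus strand). Its level was 7.6, 10.5 and 13.9 CPM in arcA livers and 11, 14.7 and 20.2 CPM in GFP livers. The groups overlapped, and 5 of 8 arcA livers lay below the lowest GFP liver. Hspg2 averaged 10.9 ± 2.05 CPM in arcA livers and 15.2 ± 2.99 CPM in GFP livers (SD, n = 8 each), a log2 difference of -0.47 (SE 0.127, 95% interval -0.74 to -0.21, adjusted p = 0.0218, edgeR). Without GFP libraries 2, 3 and 5 it was -0.43 and no longer passed the test (adjusted p = 0.0951, edgeR), which left 3 genes lower in place of 4.

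Vcan encodes versican, the large chondroitin sulfate proteoglycan of the provisional matrix. It lies on chromosome 13, 89655312 to 89742509 (minus strand), and was too low to be tested. The arcA libraries held 30 counts in all, with 0 to 7 in each, and the GFP libraries held 68 counts, with 0 to 26 in each. GFP library 7 alone held 26 of the 68. With no filter the log2 difference was -1.08 and did not pass the test (adjusted p = 0.328, edgeR).

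**Figure D1:**
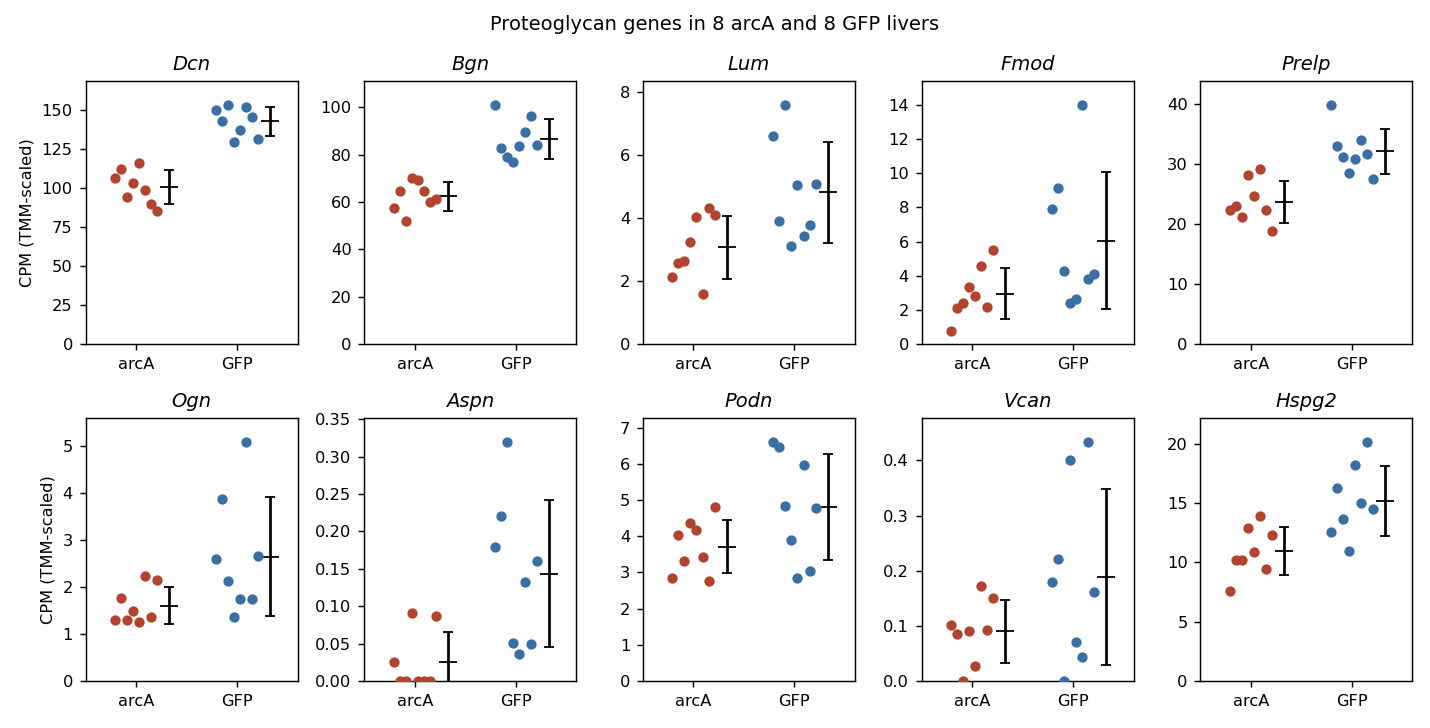
Level of each of the 10 proteoglycan genes (CPM with TMM-scaled library sizes, linear axes that start at 0), with 1 point per liver for 8 arcA and 8 GFP livers and the mean ± SD beside the points. The arcA and GFP points are apart for Dcn and Bgn and overlap for the other genes, and Aspn and Vcan stay below 0.5 CPM.

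**Figure D2:**
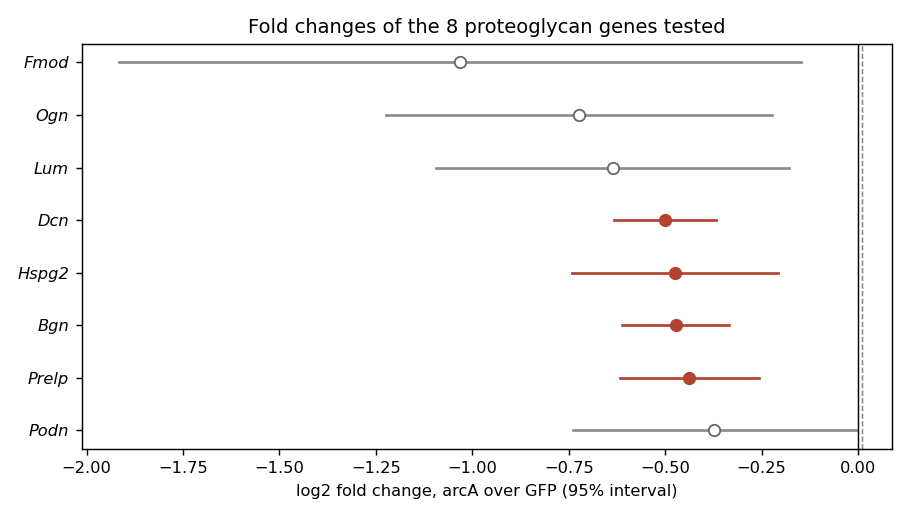
Log2 fold change, arcA over GFP, of the 8 genes tested, with its 95% interval; filled points passed the edgeR test at an adjusted p of 0.05, and the dashed line is the median of all genes tested. All points lie left of 0, and the intervals of Fmod, Ogn, Lum and Podn are wider than those of the 4 genes that passed.

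The second comparison asks whether the make-up of the proteoglycan transcripts differed. Levels of different genes were compared per kilobase of exon (CPM per kb), since longer transcripts collect more reads. The length used is that of all annotated exons of a gene merged, which can exceed that of the transcript expressed. The order and shares of the genes depend on this choice. In arcA livers the medians per kb were 17.3 for Dcn, 10.3 for Bgn, 6.29 for Prelp, 1.2 for Lum, 0.872 for Podn, 0.797 for Fmod, 0.735 for Hspg2 and 0.554 for Ogn. In GFP livers they were 24.7 for Dcn, 13.7 for Bgn, 8.72 for Prelp, 1.83 for Lum, 1.28 for Fmod, 1.12 for Podn, 1.03 for Hspg2 and 0.919 for Ogn. In both groups the ranges of Dcn, Bgn, Prelp and Lum did not overlap from one to the next, while neighbours from Lum to Ogn overlapped. The order differed between the groups in the place of Fmod and Podn, whose ranges overlapped. Hspg2 has 14.3 kb of exon sequence, which lowers its level per kb. Vcan and Aspn stood at the bottom in both groups.

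Decorin took a median of 44.8% of the summed CPM per kb of the 10 genes in arcA livers and 44.8% in GFP livers. The share of Bgn was 26.4% in arcA livers and 26.7% in GFP livers, and that of Prelp 17% in arcA livers and 16.2% in GFP livers. The summed level of the 10 genes was 187, 210 and 234 CPM (lowest, median and highest) in arcA livers and 257, 298 and 327 CPM in GFP livers, so the sums did not overlap. Most of that sum is Dcn and Bgn.

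**Figure D3:**
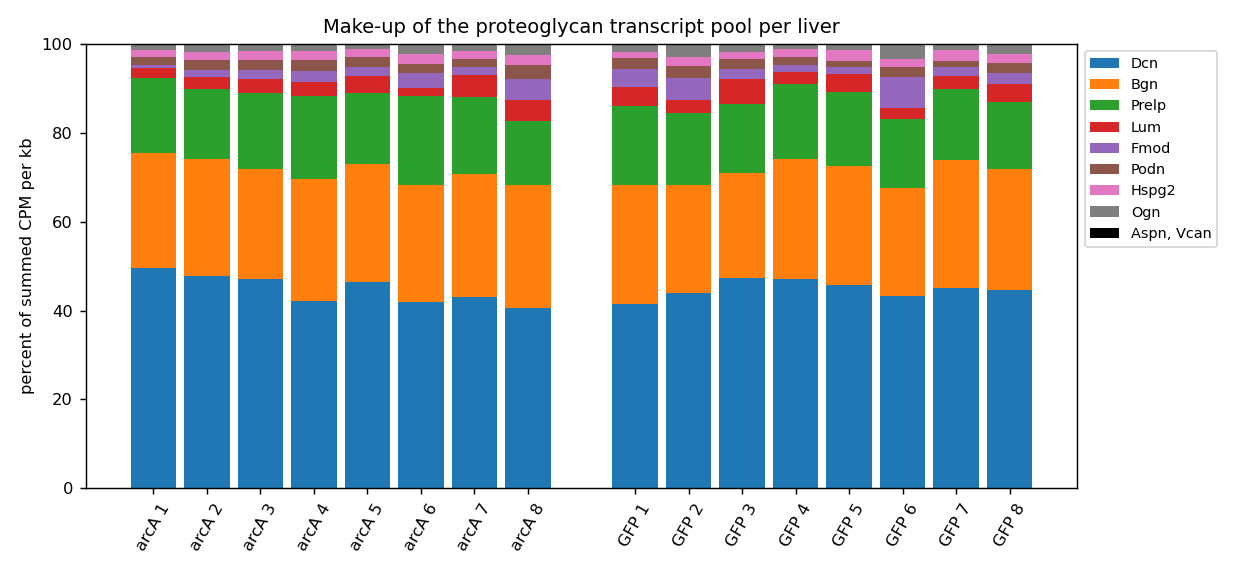
Share of each gene in the summed CPM per kb of the 10 proteoglycan genes, 1 bar per liver (percent, 8 arcA livers left of 8 GFP livers). Dcn, Bgn and Prelp fill most of every bar, and the widest Fmod band is in GFP library 6.

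A ratio of 2 genes within a library does not depend on how libraries are scaled. The ratio of each of the other 7 tested genes to Dcn was compared between the groups by an exact two-sided permutation test over the 16 libraries, with Benjamini-Hochberg adjustment over the 7. None differed, with adjusted p-values of 0.758 to 0.837 (exact permutation, n = 8 each). Per 100 Dcn counts, arcA livers had 62.4 Bgn counts and GFP livers 60.3, and both groups had 22.3 Prelp counts. The arcA ratio was 1.02 times the GFP ratio for Bgn (95% interval 0.921 to 1.14), 1.04 times for Prelp (0.929 to 1.18) and 1.02 times for Hspg2 (0.807 to 1.29). The intervals were wider for Podn (1.13 times, 0.846 to 1.51), Ogn (0.919 times, 0.625 to 1.34) and Lum (0.902 times, 0.619 to 1.31), and widest for Fmod (0.724 times, 0.37 to 1.39). These intervals leave room for unequal changes of the low genes, and a p that misses the threshold does not show that the genes changed alike.

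Markers of cells known to make these proteins were counted beside them. Of the 20 stellate cell markers tested, 11 were lower and 0 higher in arcA livers, with a summed level of 520 to 608 CPM in arcA livers and 566 to 676 CPM in GFP livers. Pdgfrb, the receptor by which these cells respond to platelet-derived growth factor, averaged 5.96 ± 0.319 CPM in arcA livers and 8.83 ± 1.79 CPM in GFP livers (SD, n = 8 each). Portal fibroblast markers had 2 lower and 1 higher of 12 tested, with sums of 41.8 to 62.0 CPM in arcA livers and 47.0 to 76.0 CPM in GFP livers. Vascular smooth muscle markers had 2 lower of 7 (Tagln and Des), with sums of 69.7 to 89.5 CPM in arcA livers and 83.7 to 98.1 CPM in GFP livers. Of these 2, Des is also one of the 11 lower stellate cell markers. Mesothelium had 0 of 9 called, with sums of 6.26 to 21 CPM in arcA livers and 6.46 to 58.1 CPM in GFP livers. These sums overlapped between the groups for all 4 lists.

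Immune cell markers were lower as well. T and natural killer cell markers were lower for 10 of 10 tested, with sums of 1.01 to 3.91 CPM in arcA livers and 10.8 to 26.4 CPM in GFP livers, and B and plasma cell markers for 5 of 5, with sums of 2.42 to 4.1 CPM in arcA livers and 53.8 to 305 CPM in GFP livers. Neither pair of ranges overlapped. Macrophage and monocyte markers were lower for 9 of 15, with sums of 89.8 to 308 CPM in arcA livers and 205 to 353 CPM in GFP livers. These sums overlapped through arcA library 3 alone (308 CPM), and the other arcA livers held 89.8 to 175 CPM. Sinusoidal endothelium had 1 lower of 12 (151 to 213 CPM in arcA livers and 166 to 254 CPM in GFP livers), vascular endothelium 1 lower of 11 (23.0 to 48.8 CPM in arcA livers and 34.2 to 58.8 CPM in GFP livers) and bile duct 0 of 7 (21.5 to 50.5 CPM in arcA livers and 25.0 to 34.8 CPM in GFP livers). The lower vascular endothelium marker, Cd34, is also one of the lower portal fibroblast markers. Among hepatocyte markers 1 of 18, Cyp2e1, was higher. No marker of these lists was at 0 in all libraries. The part of any of these cells in the proteoglycan values was not tested.

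The level of each tested gene was also set against the summed counts of the stellate list in the same library, which holds none of the 10 genes. A sum weighs markers by their counts, so abundant markers count most. The mean summed level in arcA livers was 0.907 times that in GFP livers, while the median log2 fold change of the 20 markers was -0.342. Of the 4 markers with the smallest p, Cygb (-0.871), Pdgfra (-0.693) and Pdgfrb (-0.568) differed more than Dcn, and Gdf2 (-0.443) less. Relative to the stellate sum, 3 of 8 genes were lower in arcA livers by the exact two-sided permutation test with Benjamini-Hochberg adjustment over the 8. The arcA ratio was 0.777 times the GFP ratio for Dcn (95% interval 0.7 to 0.86, adjusted p = 0.00124, exact permutation), 0.794 times for Bgn (0.722 to 0.875, adjusted p = 0.00124, exact permutation) and 0.811 times for Prelp (0.71 to 0.922, adjusted p = 0.00704, exact permutation). Hspg2 did not pass (adjusted p = 0.0584, exact permutation), nor did Lum, Fmod, Ogn and Podn (adjusted p of 0.088 to 0.334, exact permutation). The number that passed rose to 7 without GFP library 4, and was also 7 with the portal fibroblast list in place of the stellate list, Podn excepted. The mean portal sum in arcA livers was 0.958 times that in GFP livers, while the median log2 fold change of its 12 tested markers was -0.497. Gas1, called higher, averaged 17.7 CPM in arcA livers and 13.3 CPM in GFP livers. The 2 called lower, Thy1 and Cd34, averaged 0.408 and 0.871 CPM in arcA livers and 1.22 and 1.64 CPM in GFP livers.

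**Figure D4:**
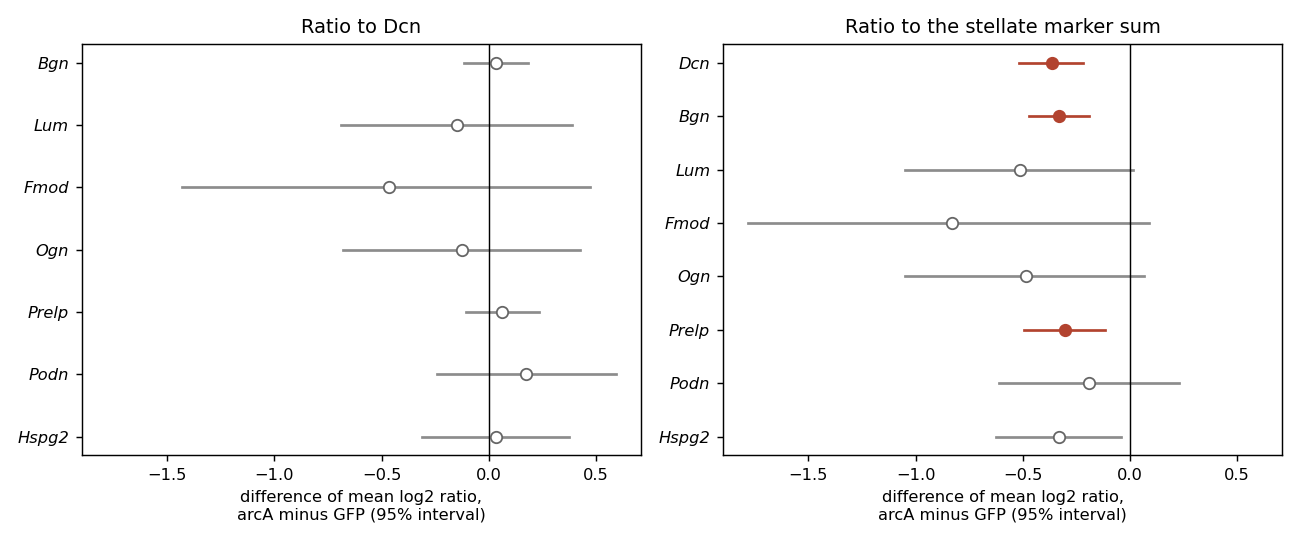
Difference of the mean log2 ratio, arcA minus GFP, with its 95% interval, of each gene to Dcn (left) and to the summed stellate marker counts (right); filled points passed the exact permutation test after adjustment. No ratio to Dcn passed, while Dcn, Bgn and Prelp were lower relative to the summed stellate marker counts, in which abundant markers count most.

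Within groups, 2 gene pairs correlated after adjustment, both with Fmod. Correlations of log2 CPM were computed for 28 gene pairs in the 8 arcA livers and the same 28 in the 8 GFP livers, with an exact permutation p over all pairings and Benjamini-Hochberg adjustment over the 56. The median Pearson r was 0.275 in arcA livers and 0.357 in GFP livers. Fmod and Hspg2 correlated in arcA livers (r = 0.93, exact permutation p = 0.00156, adjusted 0.0438), with Spearman's rho = 0.905 and an adjusted p for rho of 0.128, and r was 0.96 without the 2 livers farthest from the median. In GFP livers r of Fmod and Hspg2 was 0.00653 (exact permutation p = 0.988). Fmod and Ogn correlated in GFP livers (r = 0.943, exact permutation p = 0.000223, adjusted 0.0125), with rho = 0.929 and an adjusted p for rho of 0.125, and r was 0.815 without the 2 farthest livers. In arcA livers r of Fmod and Ogn was 0.664 (exact permutation p = 0.0697). No pair passed by Spearman's rho after adjustment, and with library size alone as the scaling 1 pair passed by Pearson's r. This was Fmod and Ogn in GFP livers, while Fmod and Hspg2 in arcA livers did not pass (adjusted p = 0.0625, exact permutation).

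For each of the 4 genes that were lower, the 3 genes with the most similar variation were listed by Pearson r of log2 CPM over the 16 libraries after subtraction of the group means, among genes of at least 1 CPM on average. This is a description with no test, and the compared genes share the libraries. For Dcn they were 4833418N02Rik (0.874), Stx3 (0.805) and Trmt11 (0.781). For Bgn they were Dusp3 (0.848), Frmd8 (0.82) and Endod1 (0.796), for Prelp Pex6 (0.861), Oasl1 (0.795) and Adamts13 (0.794), and for Hspg2 Tbx2 (0.862), Sgta (0.858) and Cnr2 (0.857). None of the 10 proteoglycan genes was among them.

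Most of these genes sit in clusters with other family members. Dcn and Lum lie 47.0 kb apart on chromosome 10, beside Kera (keratocan, 34.2 kb from Lum) and Epyc (epiphycan, 71.4 kb from Lum), known from cornea and cartilage, which had 0 counts in all 16 libraries. Prelp and Fmod lie 115.8 kb apart on chromosome 1, and Optc (opticin), 2.3 kb from Prelp, had 6 counts in each group. Aspn and Ogn lie 40.5 kb apart on chromosome 13, inside the span of Cenpp on the other strand, with Omd (osteomodulin) 15.2 kb from Ogn and Ecm2 11.7 kb from Aspn. Omd averaged 2.58 ± 0.934 CPM in arcA livers and 3.01 ± 0.833 CPM in GFP livers (SD, n = 8 each) and did not pass the test (log2 difference -0.23, adjusted p = 0.584, edgeR). Ecm2 did not pass either (-0.58, adjusted p = 0.275, edgeR). Hapln1, the link protein gene 43.7 kb from Vcan, averaged 0.541 CPM in arcA livers and 0.669 CPM in GFP livers and did not pass the test (adjusted p = 0.78, edgeR).

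Genes that surround proteoglycans in the pathway were described by lists, against the same backgrounds of 6.57% lower and 4.26% higher. Among the other small leucine-rich proteoglycans, 0 of 5 tested were called. Tsku (tsukushi), secreted by hepatocytes, was the most abundant of them in CPM, with 125 ± 44.4 CPM in arcA livers and 198 ± 69.7 CPM in GFP livers (SD, n = 8 each), a log2 difference of -0.66 that did not pass (adjusted p = 0.1, edgeR). Among the other secreted proteoglycans, 1 of 5 was lower. This was Srgn (serglycin), the granule proteoglycan of blood cells, with 3.4 ± 0.724 CPM in arcA livers and 5.77 ± 1.49 CPM in GFP livers (adjusted p = 0.0036, edgeR).

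Cell surface proteoglycans went in both directions, with 4 of 11 lower and 2 of 11 higher. Cd44, the hyaluronan receptor, averaged 3.12 ± 1.16 CPM in arcA livers and 6.23 ± 1.35 CPM in GFP livers (log2 difference -0.998, adjusted p = 0.00182, edgeR). Tgfbr3 (betaglycan) and Sdc3 (syndecan 3) were lower by log2 differences of -0.58 and -0.56 (adjusted p of 0.00479 and 0.00635, edgeR). Sdc1 (syndecan 1), the main heparan sulfate proteoglycan by which hepatocytes take up lipoprotein remnants, was higher, with 440 ± 79.0 CPM in arcA livers and 339 ± 45.5 CPM in GFP livers (SD, n = 8 each, adjusted p = 0.0237, edgeR). This call was lost without GFP library 7 (adjusted p = 0.051, edgeR) and without arcA libraries 3 and 8. The other two called were Gpc6 (lower) and Sdc2 (higher), named here after their values were seen, and Gpc6 lost its call with library size alone as the scaling (adjusted p = 0.0533, edgeR).

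Enzymes that build the sugar chains were read from 3 lists, beside 1 list for hyaluronan. Of the 7 tested genes for hyaluronan and link proteins, 0 were called. Of the 11 genes for chain linkage and precursors, Papss2, which makes the sulfate donor, was higher (308 ± 39.8 CPM in arcA livers and 239 ± 35.0 CPM in GFP livers, SD, n = 8 each, adjusted p = 0.0122, edgeR). Of 14 chondroitin and dermatan sulfate enzymes, 3 were lower. They were Dse, the epimerase that turns chondroitin into dermatan sulfate (log2 difference -0.46, adjusted p = 0.00703, edgeR), and the sulfotransferases Chst15 (-0.46, adjusted p = 0.00375, edgeR) and Chst12 (-0.75, adjusted p = 0.0385, edgeR). Chst12 lost its call in 10 of the 16 fits that left out 1 library. Of 14 heparan sulfate enzymes only Ext2, a chain polymerase, was called, with 30.6 ± 2.23 CPM in arcA livers and 27.0 ± 1.7 CPM in GFP livers (adjusted p = 0.0355, edgeR), and this call was lost in 10 of the 16. Without GFP libraries 2, 3 and 5 Papss2 did not pass (adjusted p = 0.0739, edgeR).

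Of 12 enzymes known to cleave proteoglycan cores or chains, 6 were lower and 1, Bmp1, was higher. Mmp12, the macrophage metalloelastase, averaged 0.19 ± 0.164 CPM in arcA livers and 4.19 ± 2.67 CPM in GFP livers (SD, n = 8 each, log2 difference -4.46, adjusted p = 5.82e-05, edgeR). Mmp13, a collagenase, was lower by a log2 difference of -3.11 (adjusted p = 0.000397, edgeR). Its level was low, at 0.0683 ± 0.0579 CPM in arcA livers (22 counts in all) and 0.598 ± 0.342 CPM in GFP livers (203 counts). Adamts5, which cleaves versican and aggrecan, averaged 1.39 ± 0.442 CPM in arcA livers and 2.81 ± 0.606 CPM in GFP livers (adjusted p = 0.00104, edgeR). Gzmb, the granule protease of cytotoxic lymphocytes, was lower by a log2 difference of -2.34 (adjusted p = 0.00165, edgeR) and is also one of the T and natural killer cell markers above. Gzmb was low as well, at 0.126 ± 0.0989 CPM in arcA livers (42 counts in all) and 0.658 ± 0.309 CPM in GFP livers (206 counts). Macrophage and monocyte markers were lower too (9 of 15), and their part in the list of cleaving enzymes was not tested.

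Of 22 ligands and receptors of small leucine-rich proteoglycans, 9 were lower and 0 higher. Tlr2, a receptor of soluble biglycan, averaged 0.957 ± 0.34 CPM in arcA livers and 3.04 ± 0.833 CPM in GFP livers (SD, n = 8 each, log2 difference -1.67, adjusted p = 4.67e-05, edgeR). Tgfb1, whose product decorin binds, and its receptor gene Tgfbr2 were lower by log2 differences of -0.62 and -0.53 (adjusted p of 0.00775 and 0.00422, edgeR). Erbb2, a receptor tyrosine kinase of the family that decorin binds, was lower by -0.77 (adjusted p = 0.0134, edgeR). Its mean level was 0.529 CPM in arcA livers and 0.906 CPM in GFP livers. Tgfbr1, Tlr4, C1qa, C1qb and C1qc were the rest of the 9, named after their values were seen. The more abundant receptor genes Egfr and Met of this list, also named after their values were seen, did not pass. Egfr averaged 78.0 CPM in arcA livers and 69.9 CPM in GFP livers (adjusted p = 0.832, edgeR). Met averaged 62.7 CPM in arcA livers and 55.3 CPM in GFP livers (adjusted p = 0.124, edgeR). Macrophage and monocyte markers were lower for 9 of 15, as given above, and their part in this list was not tested.

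Of 21 fibril partners, 10 were lower and 0 higher. Col14a1, a collagen that coats fibrils and binds decorin, averaged 35.0 ± 4.81 CPM in arcA livers and 54.7 ± 6.8 CPM in GFP livers (SD, n = 8 each, log2 difference -0.65, adjusted p = 9.69e-05, edgeR). The elastic fibre genes Fbln5 (-0.86, adjusted p = 0.000478, edgeR) and Fbn1 (-0.77, adjusted p = 0.00174, edgeR) and the microfibril collagen Col6a3 (-0.67, adjusted p = 0.00259, edgeR) were lower as well. Of 13 basement membrane partners of perlecan, 6 were lower and 1, Col18a1, was higher. Lamc1, a laminin chain, averaged 12.9 ± 0.951 CPM in arcA livers and 16.7 ± 1.9 CPM in GFP livers (SD, n = 8 each, adjusted p = 0.00188, edgeR). Col4a1 (-0.57, adjusted p = 0.00263, edgeR), Nid1, which links laminin to collagen IV (-0.71, adjusted p = 0.0051, edgeR), and Sparc, a collagen-binding matrix protein (-0.59, adjusted p = 0.0051, edgeR), were lower. Stellate cell markers were lower for 11 of 20, with sums that overlapped between arcA and GFP livers. The part of these cells in the values of both groups of partners was not tested. With libraries scaled on hepatocyte markers, none of the 6 related genes called higher (Sdc1, Sdc2, Papss2, Ext2, Bmp1 and Col18a1) passed the test (adjusted p of 0.118 to 0.835, edgeR).

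**Figure D5:**
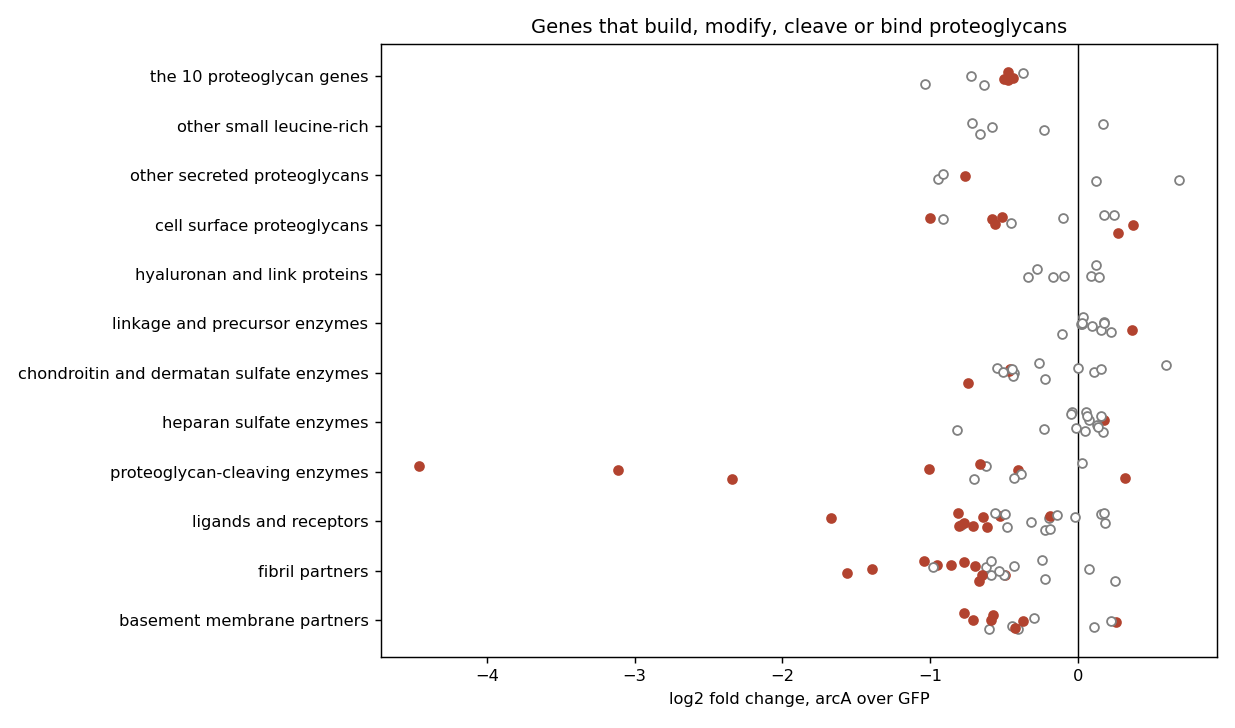
Log2 fold change, arcA over GFP, of every tested gene in the list of the 10 proteoglycan genes and in 11 lists of related genes (1 point per gene, 1 row per list); filled points passed the edgeR test at an adjusted p of 0.05. Among fibril partners and among ligands and receptors all filled points lie left of 0, while cell surface proteoglycans have filled points on both sides.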

How the data were processed

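RNA from liver was sequenced for 8 arcA and 8 GFP libraries. Separate animals are not stated per library, so p-values measure the spread between these samples. The authors deposited raw read counts per gene symbol. Per the submitters' processing notes, bcl2fastq, STAR 2.5.1a and featureCounts 1.4.6-p5 (Subread) were used with the mouse build GRCm38, with annotation release, strand setting and mate counting not given in the sources used here. The labels' protocols name Trizol for the RNA and oligo-dT. Of counts from 1 to 20, 69.8% were even, so how many fragments a count stands for is not known, and counting floors cover counting error only.

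Of 40757 lines, 348 exact copies were removed and counts of 85 repeated symbols were summed. Libraries of 1 group differed pairwise beyond sampling noise (chi-square per gene of 19.6 to 526, 56 pairs), and each was 1 sample. With edgeR 4.0.16 in R 4.3.3, a robust quasi-likelihood fit with TMM scaling was made for all 14476 genes that passed filterByExpr, with the group as its only term and Benjamini-Hochberg adjustment at 0.05; the script was tested on simulated counts. Standard errors and intervals were derived from the F statistic. CPM were computed from the counts with TMM-scaled library sizes, with a prior count of 2 for log2 CPM. Ratios within a library used an added count of 0.5, all 12870 assignments of 8 and 8 libraries and intervals by inversion of the test; the smallest p they can give is 0.000155. Correlations used all 40320 pairings. Coordinates, exon lengths and overlaps came from GENCODE M21 (GRCm38), matched by symbol, and promoters from RefSeq (GRCm38.p6).

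All 10 members are named whatever their p; of each related list, the genes called, at most 4 with the smallest p, are named with values; neighbours in the genome are named where they belong to a list. The members, lists and tests were chosen with earlier results of these data known. Alternatives were other scalings and filters, halved counts, DESeq2 1.42.0, limma 3.58.1 voom, the replicate block, leaving out libraries, another marker list and, for correlations, library size alone. No transgene was analysed here.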

Additional observations from a re-analysis of the deposited data

How the results depend on the processing

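Over the 28 alternative fits, 3 to 6 of the proteoglycan genes were lower and 0 higher, and no fold change of a tested gene changed sign. Dcn, Bgn and Prelp passed in all 28 fits and Hspg2 in 27, without a pass when GFP libraries 2, 3 and 5 were left out. DESeq2 and scaling on hepatocyte markers gave 6, adding Lum and Ogn. Leaving out 1 library at a time gave 4 to 6, with Ogn called in 5 of 16 such fits and Lum in 2. Replicate numbers did not pair the libraries, since deviations of same-numbered livers correlated at -0.0487 to 0.159 and 1 of 8 correlated best with its own number; with the replicate block 5 were lower, with Ogn at -0.641 (adjusted p = 0.0244, edgeR), and 876 genes were lower and 592 higher over all genes. Scaling on hepatocyte markers shifted the median of all genes by -0.154 on the log2 scale; relative to the median Dcn was at -0.523, Bgn at -0.489, Prelp at -0.457 and Hspg2 at -0.484. Of all calls, 39.3% were higher in arcA livers (951 lower and 617 higher). This share was 24% with library size alone (253 higher) and 3.66% with hepatocyte scaling (1815 lower and 69 higher). Leaving out 1 library at a time gave 389 to 638 higher, with the lowest number without GFP library 2. The number was 412 without GFP library 7, 421 without arcA library 6 and 369 without GFP libraries 2, 3 and 5. The cause was not tested. Papss2 lost its call with hepatocyte scaling (adjusted p = 0.118, edgeR) and without GFP libraries 2, 3 and 5.

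No ratio to Dcn passed under 20 alternatives. The sign of 3 of these uncalled log2 ratios changed: leaving out 1 library at a time gave -0.00157 to 0.0611 for Bgn, -0.029 to 0.116 for Hspg2 and -0.222 to 0.016 for Ogn, Bgn was -0.0269 without GFP libraries 2, 3 and 5, and Hspg2 was -0.0406 without arcA libraries 3 and 8. Ratios to the stellate marker sum passed for 3 to 7 genes when 1 library was left out, with 7 without GFP library 4, and for 7 with the portal fibroblast list; Dcn, Bgn and Prelp passed in all 21 alternatives. The number of correlated pairs was 1 with library size alone, against 2. Depth limits Aspn and Vcan, which hold 51 and 98 counts in all.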

Other observations

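Fmod, Ogn, Lum and Podn were not called, and their most similar genes were looked up after their values were seen, by the Pearson r of log2 CPM over the 16 libraries after subtraction of the group means, as a description with no test. For Fmod they were Col6a1 (0.943), a collagen VI chain, Bicc1 (0.927) and Aebp1 (0.912), a collagen-binding matrix protein. For Ogn they were Sulf1 (0.907), a sulfatase of heparan sulfate, Bcam (0.893), a laminin receptor, and Gpm6a (0.882), one of the mesothelium markers. Col6a1 averaged 8.15 CPM over the 16 libraries and was lower in arcA livers by a log2 difference of -0.69 (adjusted p = 0.0388, edgeR), while Sulf1, Bcam and Gpm6a did not pass the test (adjusted p of 0.225, 0.249 and 0.252, edgeR). For Lum they were Klhl25 (0.812), Islr (0.789) and Pycrl (0.774); Islr, a leucine-rich repeat protein of mesenchymal cells, was lower by a log2 difference of -0.73 (adjusted p = 0.0159, edgeR). For Podn they were Gm10319 (0.834), Ap3s1-ps1 (0.827) and Tnxb (0.813), the gene of the matrix protein tenascin X; Gm10319 was higher in arcA livers by a log2 difference of 0.63 (adjusted p = 0.026, edgeR), and Ap3s1-ps1 and Tnxb did not pass the test (adjusted p of 0.438 and 0.252, edgeR).

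The summed level of the mesothelium list was 58.1 CPM in GFP library 6, against 6.46 to 22.5 CPM in the other GFP libraries and 6.26 to 21 CPM in the arcA libraries.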
